A study of Saccharomyces cerevisiae with 6 samples.

Results

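The genes of amino acid biosynthesis in *Saccharomyces cerevisiae*, together with *GCN4*, their transcriptional activator, were followed in cells expressing wild-type or mutant Not4. They are defined by pathway, and the rule that lists them uses no measured value. They comprise 7 genes of arginine synthesis, 6 of histidine, 10 of the branched-chain amino acids, 5 of tryptophan, 7 of lysine, 5 of the shared aromatic pathway, 5 of threonine and homoserine, 2 of asparagine, 3 of glutamate and glutamine, 3 of serine, 2 of proline, and *GCN4*. These are 56 of the 5913 genes measured, and all 56 passed the filter on low values that left 5805 genes for testing. *HIS3* and *LEU2* were left out because the strain carries deletions of them.

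RNA-seq was performed on 6 cultures of *not4Δ* cells of the BY4741 background. In all 6 the chromosomal *NOT4* gene was deleted, and Not4 was supplied from a centromeric p416 plasmid carrying *URA3*, where the *ADH1* promoter drove a form of Not4 with a C-terminal FLAG tag. In 3 cultures this was wild-type Not4 (Not4WT), and in 3 it was Not4RRM, which carries mutations in the RNA recognition motif and the adjoining C3H1 zinc finger. The cells were grown in synthetic medium without uracil that supplied amino acids and had glutamic acid in place of ammonium sulfate. Not4 is the ubiquitin ligase of the Ccr4-Not complex, a regulator of transcription and mRNA decay, and the comparison asked whether the domain formed by these motifs affects mRNA levels. Neither group is a chromosomal allele. Not4 was made from a constitutive promoter in both.

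Yeast can make every amino acid it needs, and many of the enzymes are under general amino acid control. When an amino acid runs short, uncharged tRNA activates the kinase Gcn2, which phosphorylates the initiation factor eIF2. Translation of *GCN4* mRNA then increases through short upstream reading frames in its leader, and the Gcn4 protein binds promoters of biosynthetic genes. Control of Gcn4 is thus largely at translation and at degradation of the protein, neither of which mRNA levels measure.

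Gcn4 binds as a dimer to a near-palindromic site whose core letters are TGACTC. The 300 bases before each coding start were searched on both strands for TGACTC (reverse complement GAGTCA) and for the longer form TGACTCA (reverse complement TGAGTCA), which contains it. A match to the core was present before 35 of the 56 genes (62.5%) and before 458 of 5887 nuclear genes (7.78%). The longer form was present before 23 of the 56 (41.1%) and before 154 of the 5887 (2.62%). The promoter of *HIS4*, a gene long used to study general control, held 3 core matches within 82 bases. It is shown from the RefSeq R64 genome, chrIII:68517-68598, read 5′ to 3′ on the minus strand with the matches in capitals.
HIS4: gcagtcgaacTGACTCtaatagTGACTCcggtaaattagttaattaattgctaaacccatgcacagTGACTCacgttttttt

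Further windows were taken for genes whose values differ in pattern below. *ARG1*, *HIS1*, *HIS5* and *HOM2* stood high in 1 Not4RRM sample only, while *LEU4* and *ILV6* were below every Not4WT sample in all 3. For *ILV6* this was only just so in Not4RRM replicate 1 (36965, against 37323 in the lowest Not4WT sample). The 6 windows lie at chrXV:218926-218953 (*ARG1*, plus strand), chrV:265952-265980 (*HIS1*, minus), chrIX:142715-142743 (*HIS5*, plus), chrIV:770162-770190 (*HOM2*, plus), chrXIV:426838-426866 (*LEU4*, minus) and chrIII:105681-105709 (*ILV6*, minus), again with the match in capitals.
ARG1: gccgtatggaaGAGTCAtttaaaggcag
HIS1: aagcttccaagTGAGTCAcctctaccgtt
HIS5: cttggatctgtTGACTCActtcaattgat
HOM2: caagcattgatTGACTCAttttcctctga
LEU4: ttacgtgtaagTGACTCAgttctttcaaa
ILV6: caccgttatcgTGACTCActttctttcgc
Windows were taken only for genes with a match, so the same letters before genes of both patterns reflect that choice. Genes of both patterns without a match in this window also exist, such as *ARO4*, high in 1 Not4RRM sample, and *GDH1*, lower in all 3. In Not4RRM replicate 1 *GDH1* was only just below the lowest Not4WT sample (3992, against 4120). A match is a description of the window and not evidence that it is bound.

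The deposited values are read counts that the authors scaled to a common total, between 14881818 and 14881884 per sample, so depth before scaling is unknown. They were rescaled here with TMM factors, which set the bulk of the genes level between samples, and the result is called the normalised count. Not4RRM replicate 1 stood apart from the other Not4RRM samples. Its log2 normalised counts over all tested genes correlated with those of Not4RRM replicates 2 and 3 at Pearson r of 0.952 and 0.947, whereas replicates 2 and 3 correlated at 0.993 and the Not4WT samples at 0.968 to 0.984. Its difference from the Not4WT mean also followed coding length more closely, with a Spearman rho of -0.54 over 5801 genes, against -0.17 and -0.18 in replicates 2 and 3. In Not4WT replicates 1 to 3 that rho was -0.15, 0.27 and -0.21. The lowest r of any pair of samples was 0.938, between Not4WT replicate 2 and Not4RRM replicate 3. Because it stood apart within its group, differences are also given without Not4RRM replicate 1. *NOT4* itself, read from the plasmid, was at 8880 to 12055 in the Not4WT samples and at 34309 to 43404 in the Not4RRM samples. Of the genes deleted in BY4741, *LEU2* was at 11 to 20 and *MET17* at 15 to 27, *HIS3*, whose deletion is partial, was at 867 to 2592, and *URA3*, present on the plasmid, was at 1007 to 1173 with Not4WT and 4296 to 9511 with Not4RRM. The level of Not4 mRNA and the mutation cannot be told apart in this design.

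No gene of amino acid biosynthesis passed the test between Not4WT and Not4RRM. Genes were called where limma's moderated test on log2 of the normalised count plus 1 gave an adjusted p (Benjamini-Hochberg) under 0.05 and the difference was 1.5-fold or more. This called 0 of the 56 genes and 0 of all 5805 (0%). Adjusted p ranged from 0.164 to 0.994 over the 56 genes and was 0.072 at the lowest over all genes. At an unadjusted p under 0.05 there were 11 of the 56, against 926 of all genes (16.0%). Of these 11, *ARG8*, *HIS4*, *LYS20* and *ARO7* were higher in Not4RRM (9.84% of all genes were), and *LEU4*, *ILV1*, *ILV6*, *LYS4*, *ARO1*, *GDH1* and *GLT1* were lower (6.12% of all genes were). By the steps given in the study's methods, genes were listed at 1.5-fold and an unadjusted p under 0.05 in an unequal-variance test per gene, and the p-values were then adjusted within that list. The list held 355 of 5913 genes. Every p in it was already under 0.05, so an adjustment within the list could remove none, and it removed 0. The 355 listed genes held 3 of the 56, *LEU4*, *ILV6* and *GLT1*, all lower in Not4RRM (3.81% of all genes), and 0 that were higher (2.20% of all genes). The same steps on TMM-scaled values, a choice made after seeing the data, kept *LEU4* and *GLT1* among the lower genes (2.13% of all genes) and again held 0 that were higher (3.48%).

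Without Not4RRM replicate 1, 358 of 5793 genes were called (6.18%). Among the 56 these were *LEU4*, *LYS1* and *GDH1*, which all fell, where 2.26% of all genes were called lower, and 0 of the 56 were called higher, where 3.92% of all genes were. Chromosome VIII, which carried 3 of the 56, held 133 of the 358 called genes. *GDH1* fell by 1.08 on the log2 scale (limma adjusted p = 0.0232), *LYS1* by 0.65 (adjusted p = 0.0413) and *LEU4* by 0.64 (adjusted p = 0.0468). At an unadjusted p under 0.05 in this fit, 25 of the 56 were lower (44.6%), against 13.8% of all genes, and 4 were higher, against 15.4% of all genes. On chromosome VIII, 227 of 275 tested genes were higher in this way. This fit leaves 2 Not4RRM samples, and it was singled out because the omitted sample stood apart.

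The medians of the 3 Not4RRM samples over these genes did not share a direction. The median log2 difference from the Not4WT mean over the 56 was 0.28 in Not4RRM replicate 1, -0.30 in replicate 2 and -0.35 in replicate 3, and between -0.09 and 0.07 in the Not4WT samples. Over all tested genes the medians of the same 3 samples were 0.08, 0.03 and 0.01. Replicate 1 was the highest of the 6 samples for 31 of the 56 genes (55.4%), against 30.7% of all genes, and the lowest for 2. At least 1.5-fold above the Not4WT mean were 21 of the 56 genes in replicate 1 (18.7% of all genes), 0 in replicate 2 (16.0%) and 1 in replicate 3 (17.3%). At least 1.5-fold below it were 1 gene in replicate 1 (13.0% of all genes), 4 in replicate 2 (4.62%) and 7 in replicate 3 (6.36%). Replicate 1 lay above the Not4WT mean while replicates 2 and 3 both lay below it for 26 genes (46.4%), against 18.3% of all genes. For another 26 genes all 3 Not4RRM samples lay on the same side of that mean, against 2964 of all 5805. After removal of each sample's trend with coding length, the medians over the 56 were 0.38, -0.32 and -0.36 in Not4RRM replicates 1 to 3, and those over all tested genes were 0.14, -0.03 and -0.05. The cause of the opposite direction of replicate 1 was not tested. Since RNA came from whole cultures, a difference in every cell and a difference in some of the cells cannot be told apart.

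**Figure D1:**
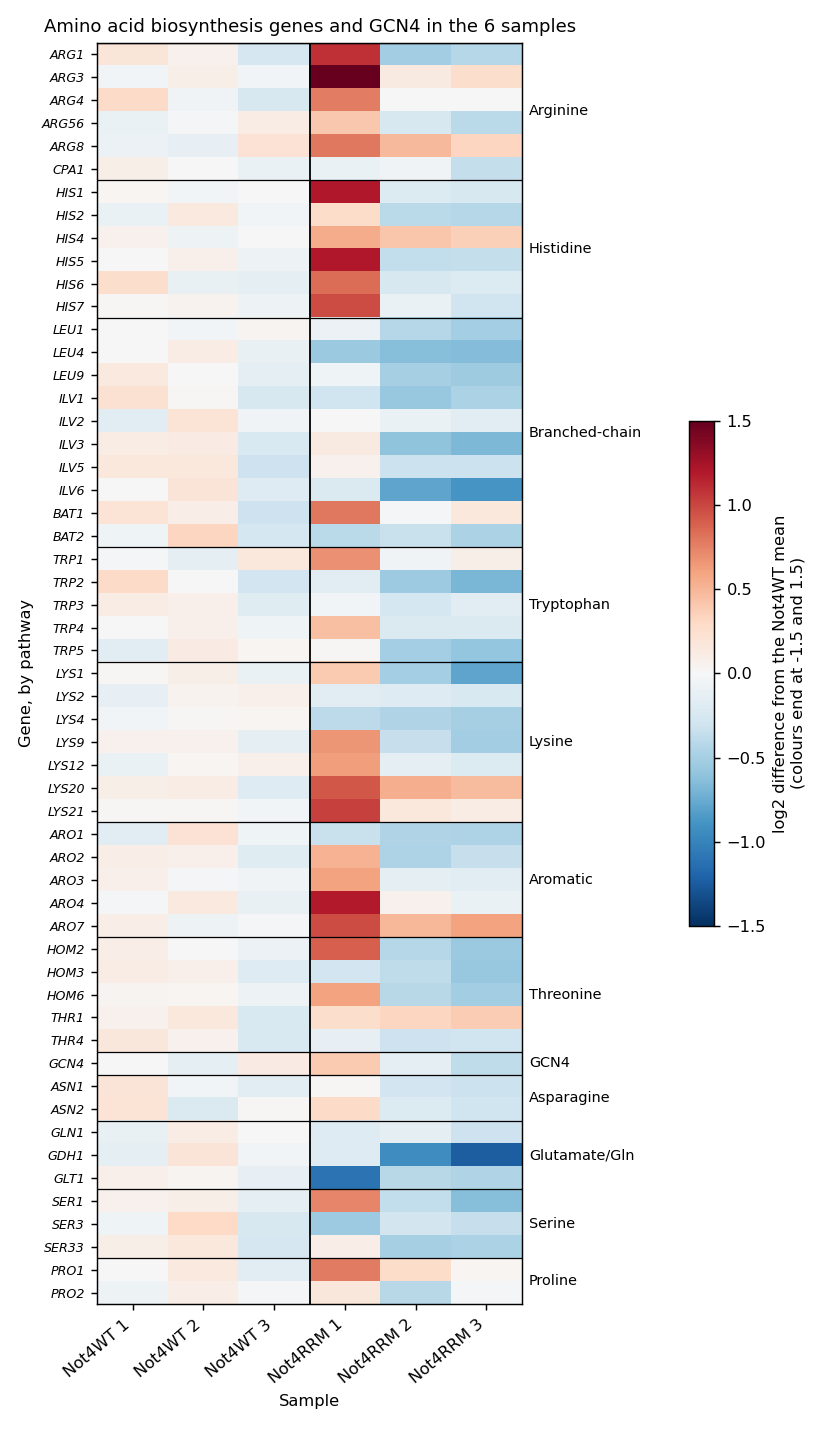
Log2 difference of each normalised count from the Not4WT mean, with 1 row for each of 55 of the 56 genes, grouped by pathway, and 1 column for each of the 6 cultures. The column of Not4RRM replicate 1 is mostly on the higher side (median 0.28 over the 56), while those of replicates 2 and 3 are mostly on the lower side (medians -0.30 and -0.35 over the 56).

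Over the 3 samples together, 20 of the 56 log2 fold changes were positive and 36 negative, with a median of -0.09, against 0.05 over all tested genes. They ran from -0.79 for *GDH1* to 0.74 for *ARG3*. Without Not4RRM replicate 1, 45 of the 56 were negative (80.4%) with a median of -0.31, against 47.7% and 0.02 over all genes. Every Not4RRM sample was above every Not4WT sample for 7 genes (12.5%, against 12.3% of all genes) and below for 13 (23.2%, against 12.2%). The 7 were *ARG3*, *ARG8*, *HIS4*, *LYS20*, *LYS21*, *ARO7* and *THR1*. The 13 were *LEU1*, *LEU4*, *ILV1*, *ILV6*, *BAT2*, *LYS2*, *LYS4*, *ARO1*, *HOM3*, *GLN1*, *GDH1*, *GLT1* and *SER3*. The difference was 1.5-fold or more for *ARG3*, *LYS20* and *ARO7* among the 7 (6.56% of all genes were so higher) and for *LEU4*, *ILV6*, *GDH1* and *GLT1* among the 13 (3.10% were so lower). Not4RRM replicates 2 and 3 were both below every Not4WT sample for 39 genes (69.6%), against 25.2% of all genes, and both above for 7 (12.5%), against 27.3%. On chromosome VIII, which carried 3 of the 56, both were above for 255 of 275 tested genes. With 3 samples against 3, groups that do not overlap give the lowest p an exact two-sided permutation test allows, which is 0.1. The 56 genes took 2.08%, 2.21% and 1.71% of all counts in the Not4WT samples and 2.06%, 1.45% and 1.34% in Not4RRM replicates 1 to 3. These shares lean on *ILV5* and *ILV6*, with mean normalised counts of 74068 and 43083 with Not4WT. The normalised counts of the 56 summed to 251391 to 304101 in the Not4WT samples.

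*GCN4* (YEL009C, R64 chromosome V, 138918 to 139763, minus strand, 1 coding exon) had normalised counts of 2840, 2571 and 3087 with Not4WT and 3701, 2563 and 2175 with Not4RRM. The Not4RRM samples lay on both sides of the Not4WT range. The means were 2833 ± 258 (SD, n = 3) and 2813 ± 793 (SD, n = 3), and the log2 fold change was -0.04 (standard error 0.23, limma adjusted p = 0.94). Without Not4RRM replicate 1 it was -0.26 (adjusted p = 0.248), with both remaining samples below every Not4WT sample. Among the Not4RRM samples *GCN4* mRNA and the median of the 56 genes were both highest in replicate 1 and lowest in replicate 3, whereas among the Not4WT samples *GCN4* was highest in replicate 3, where that median was lowest.

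The mRNAs of all 3 glutamate and glutamine genes were lower in every Not4RRM sample than in every Not4WT sample, as were 12.2% of all tested genes. *GDH1* encodes the NADP-dependent glutamate dehydrogenase that forms glutamate from ammonium and 2-oxoglutarate. *GDH1* (YOR375C, chromosome XV, 1041678 to 1043042, minus strand) had normalised counts of 4120, 5227 and 4443 with Not4WT and 3992, 2406 and 1936 with Not4RRM. Replicate 1 was just below the Not4WT range and the other Not4RRM samples well below it. On the log2 scale the difference was -0.79 (standard error 0.28, limma adjusted p = 0.254).

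*GLT1*, which encodes glutamate synthase, the other route to glutamate, was lowest in Not4RRM replicate 1. *GLT1* (YDL171C, chromosome IV, 149203 to 155640, minus strand) had normalised counts of 1570, 1537 and 1367 with Not4WT and 691, 1111 and 1086 with Not4RRM, so that all 3 Not4RRM samples were below the Not4WT range. The log2 fold change was -0.66 (standard error 0.22, limma adjusted p = 0.238). It was -0.44 without that sample and -0.39 after removal of the trend with coding length, and *GLT1* is the longest of the 56 genes. *GLN1*, glutamine synthetase, was also lower without overlap, at 5325, 6219 and 5729 with Not4WT and 5041, 5204 and 4634 with Not4RRM. That difference was small, at -0.21 on the log2 scale (standard error 0.17, limma adjusted p = 0.545), and -0.23 without replicate 1.

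In the branched-chain pathway, 9 of the 10 log2 fold changes were negative, with a median of -0.37 (-0.49 without replicate 1). None passed the test with all 6 samples. *LEU4* encodes the main α-isopropylmalate synthase, which commits carbon to leucine. *LEU4* (YNL104C, chromosome XIV, 424895 to 426754, minus strand) had normalised counts of 15641, 16939 and 14419 with Not4WT and 10671, 10038 and 9985 with Not4RRM. Here the 3 Not4RRM samples were alike, and all lay below the Not4WT range. The means were 15666 ± 1260 and 10231 ± 382 (SD, n = 3 each), a log2 fold change of -0.61 (standard error 0.19, limma adjusted p = 0.213).

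*ILV6*, the regulatory subunit of acetolactate synthase, was one of the most abundant of the 56 mRNAs. *ILV6* (YCL009C, chromosome III, 104619 to 105548, minus strand) had normalised counts of 43119, 48807 and 37323 with Not4WT and 36965, 24711 and 23112 with Not4RRM. Replicate 1 was only just below the lowest Not4WT sample. The log2 fold change was -0.63 (standard error 0.27, limma adjusted p = 0.304), and -0.84 without that replicate (adjusted p = 0.0511). *ILV2*, the catalytic subunit of the same enzyme, had a log2 fold change of -0.09 (standard error 0.17), and its groups overlapped.

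The remaining genes of the pathway were also lower on average, apart from *BAT1*. *ILV1*, threonine deaminase, which starts isoleucine synthesis, was at 3382, 2931 and 2455 with Not4WT and 2355, 1955 and 2083 with Not4RRM (log2 fold change -0.45, standard error 0.19, limma adjusted p = 0.307). *LEU1*, isopropylmalate isomerase, was at 3335, 3254 and 3446 and at 3145, 2476 and 2341 in the same order. Both were lower in every Not4RRM sample, with log2 fold changes of -0.52 for *ILV1* and -0.47 for *LEU1* without replicate 1. *ILV3*, dihydroxyacid dehydratase, and *ILV5*, the reductoisomerase, had log2 fold changes of -0.38 and -0.19, with replicate 1 near the higher Not4WT samples. Per kilobase of coding length, *ILV5* was the most abundant of the 56 mRNAs in Not4WT cells, with 62347 normalised counts per kb, followed by *ILV6* with 46326.

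The arginine genes were led by replicate 1. Their median log2 difference from the Not4WT mean was 0.76 in Not4RRM replicate 1, -0.05 in replicate 2 and -0.36 in replicate 3. *ARG3* (YJL088W, chromosome X, 268799 to 269815, plus strand), ornithine carbamoyltransferase, had normalised counts of 229, 252 and 229 with Not4WT and 834, 259 and 283 with Not4RRM. The groups did not overlap, but replicates 2 and 3 were only slightly above the highest Not4WT sample. Its log2 fold change, the highest of the 56, was 0.74 (standard error 0.42, limma adjusted p = 0.413), and it was 0.20 without replicate 1 (adjusted p = 0.362). The size of the difference in *ARG3* thus came from 1 sample.

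*ARG1*, argininosuccinate synthase, had normalised counts of 1040, 956 and 768 with Not4WT and 1955, 637 and 678 with Not4RRM. Replicate 1 was the highest of the 6 samples and the other Not4RRM samples the lowest, and the log2 fold change went from 0.05 to -0.47 without replicate 1. *ARG8*, acetylornithine aminotransferase, was higher in all 3 Not4RRM samples, at 207, 201 and 255 with Not4WT and 381, 309 and 275 with Not4RRM. On the log2 scale the difference was 0.54 (standard error 0.19, limma adjusted p = 0.249), and 0.41 without replicate 1. *CPA1*, which acts in the synthesis of carbamoyl phosphate for arginine, had a log2 fold change of -0.17, and *ARG56* (*ARG5,6*), which encodes the acetylglutamate kinase and the reductase that follows it, one of -0.08.

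All 6 histidine genes were highest in Not4RRM replicate 1, where their median log2 difference from the Not4WT mean was 0.91, against -0.22 and -0.27 in replicates 2 and 3. *HIS1*, ATP phosphoribosyltransferase, the first enzyme, had normalised counts of 1830, 1731 and 1799 with Not4WT and 4106, 1555 and 1512 with Not4RRM. *HIS5*, histidinol-phosphate aminotransferase, was at 1695, 1802 and 1619 with Not4WT and 3907, 1319 and 1328 with Not4RRM. In both genes the Not4WT samples were close together, replicate 1 was far above them, and replicates 2 and 3 were below them. *HIS7*, the glutamine amidotransferase and cyclase, showed the same order of samples. Without replicate 1 the log2 fold changes of *HIS1*, *HIS5* and *HIS7* went from 0.25, 0.16 and 0.19 to -0.22, -0.36 and -0.20.

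*HIS4*, whose enzyme carries out several steps of the pathway and whose promoter is shown above, differed from the other histidine genes. *HIS4* (YCL030C, chromosome III, 65934 to 68333, minus strand) had normalised counts of 1803, 1637 and 1730 with Not4WT and 2527, 2307 and 2206 with Not4RRM. All 3 Not4RRM samples were above all Not4WT samples and close to each other. The means were 1723 ± 83.3 and 2347 ± 164 (SD, n = 3 each), a log2 fold change of 0.44 (standard error 0.16, limma adjusted p = 0.254), and 0.39 without replicate 1 (adjusted p = 0.0821).

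**Figure D2:**
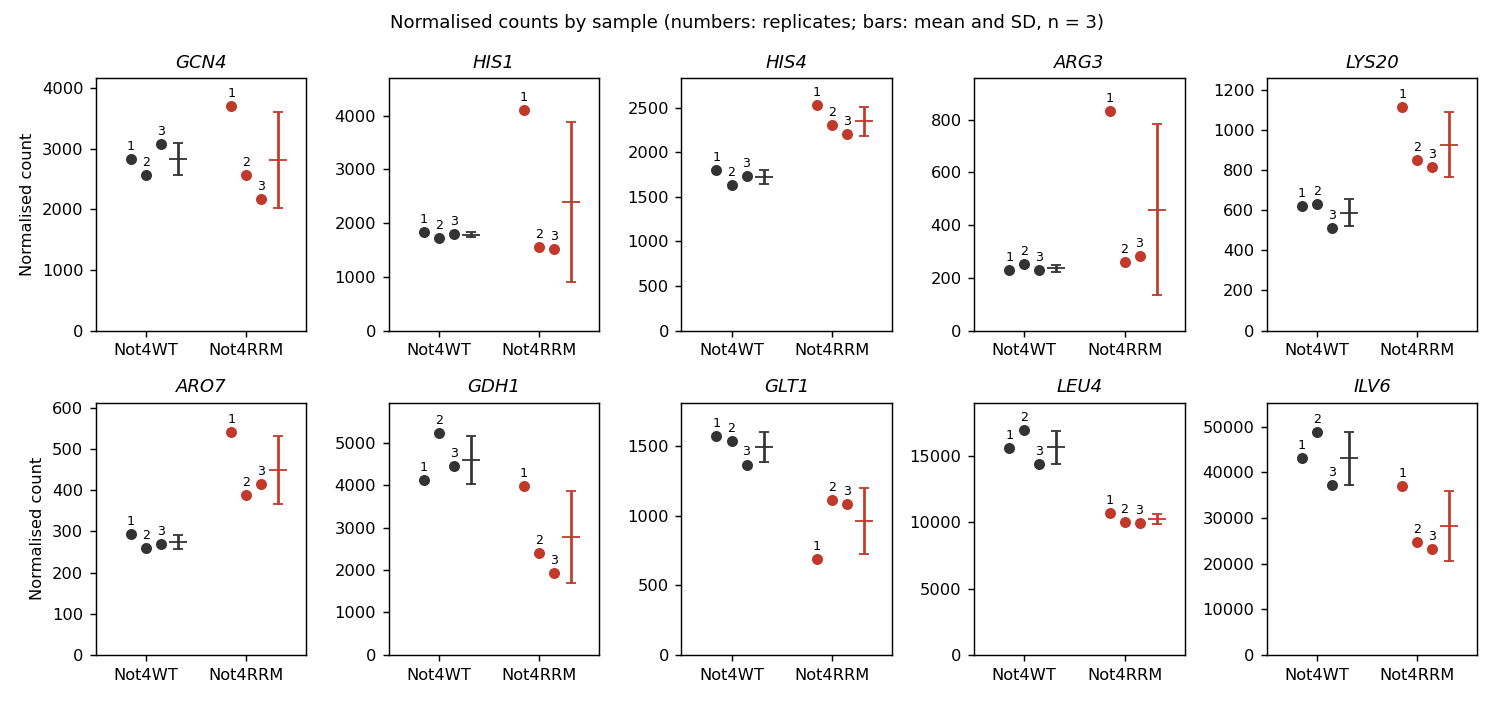
Normalised counts of selected genes in each of the 6 cultures, by group, with 1 panel per gene, the group mean as a horizontal mark and its SD (n = 3) as an error line. *LEU4* is lower in all Not4RRM cultures (9985 to 10671, against 14419 to 16939), whereas *HIS1* is spread from 1512 to 4106 with replicate 1 far above the others.

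Of the 7 lysine genes, *LYS20* and *LYS21* were higher in every Not4RRM sample (12.3% of all genes were) and *LYS2* and *LYS4* lower (12.2% were). The log2 fold change of *LYS2* was -0.19, and 0.02 after removal of the length trend. *LYS20* and *LYS21* encode homocitrate synthases, which start the pathway. *LYS20* (YDL182W, chromosome IV, 133437 to 134723, plus strand) had normalised counts of 619, 632 and 510 with Not4WT and 1111, 850 and 815 with Not4RRM, a difference of 0.65 on the log2 scale (standard error 0.19, limma adjusted p = 0.189), and 0.51 without replicate 1. *LYS21* had 1442, 1452 and 1395 with Not4WT and 2899, 1595 and 1542 with Not4RRM, where replicates 2 and 3 were little above the Not4WT samples. Its log2 fold change was 0.43, and 0.13 without replicate 1. *LYS4*, homoaconitase, was at 1608, 1666 and 1678 with Not4WT and 1254, 1204 and 1168 with Not4RRM, with little spread in either group (log2 fold change -0.45, standard error 0.15, limma adjusted p = 0.232). Without replicate 1 it was -0.48 (adjusted p = 0.0468), short of the 1.5-fold limit. *LYS1*, saccharopine dehydrogenase, the last step, was at 2329, 2446 and 2163 with Not4WT and 3035, 1620 and 1332 with Not4RRM, so that the fall without replicate 1 given above became -0.30 (adjusted p = 0.623) with it.

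In the shared aromatic pathway, *ARO7*, chorismate mutase, had the lowest adjusted p of the 56. *ARO7* (YPR060C, chromosome XVI, 674861 to 675631, minus strand), which leads towards tyrosine and phenylalanine, had normalised counts of 294, 259 and 269 with Not4WT and 542, 388 and 415 with Not4RRM. All 3 Not4RRM samples were above the Not4WT range, with replicate 1 the highest. The log2 fold change was 0.69 (standard error 0.18, limma adjusted p = 0.164) and was 0.55 without replicate 1 (adjusted p = 0.0598) and 0.50 after removal of the length trend. *ARO1*, the enzyme of consecutive steps towards chorismate, was lower in every Not4RRM sample, at 2074, 2676 and 2211 with Not4WT and 1832, 1684 and 1676 with Not4RRM. Its log2 fold change of -0.42 (limma adjusted p = 0.299) was -0.46 without replicate 1 and -0.19 after removal of the length trend, and *ARO1* is one of the longer genes. In the branch to tryptophan, the 5 *TRP* genes had log2 fold changes between -0.46 and 0.24, and the groups overlapped for each of them.

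Over the threonine and homoserine genes the median log2 fold change was -0.11, and -0.47 without replicate 1. *HOM2*, aspartate semialdehyde dehydrogenase, had normalised counts of 2161, 2020 and 1900 with Not4WT and 3779, 1501 and 1371 with Not4RRM. *HOM3*, aspartate kinase, which precedes it, was at 4806, 4690 and 3906 with Not4WT and 3648, 3406 and 3011 with Not4RRM. *HOM2* thus had the split among Not4RRM samples seen in the histidine genes, while *HOM3* was lower in all 3. *SER1*, phosphoserine aminotransferase, was split like *HOM2*, at 2599, 2648 and 2240 with Not4WT and 4124, 1924 and 1603 with Not4RRM. Without replicate 1 the log2 fold changes of *HOM2*, *HOM3* and *SER1* were -0.50, -0.47 and -0.50, against -0.03, -0.41 and -0.09 with it. *PRO1* and *PRO2*, glutamate kinase and the reductase that follows it in proline synthesis, had log2 fold changes of 0.36 and -0.09 with overlapping groups, and *PRO1* had the lowest level per kilobase of the 56 in Not4WT cells, 131 normalised counts per kb.

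**Figure D3:**
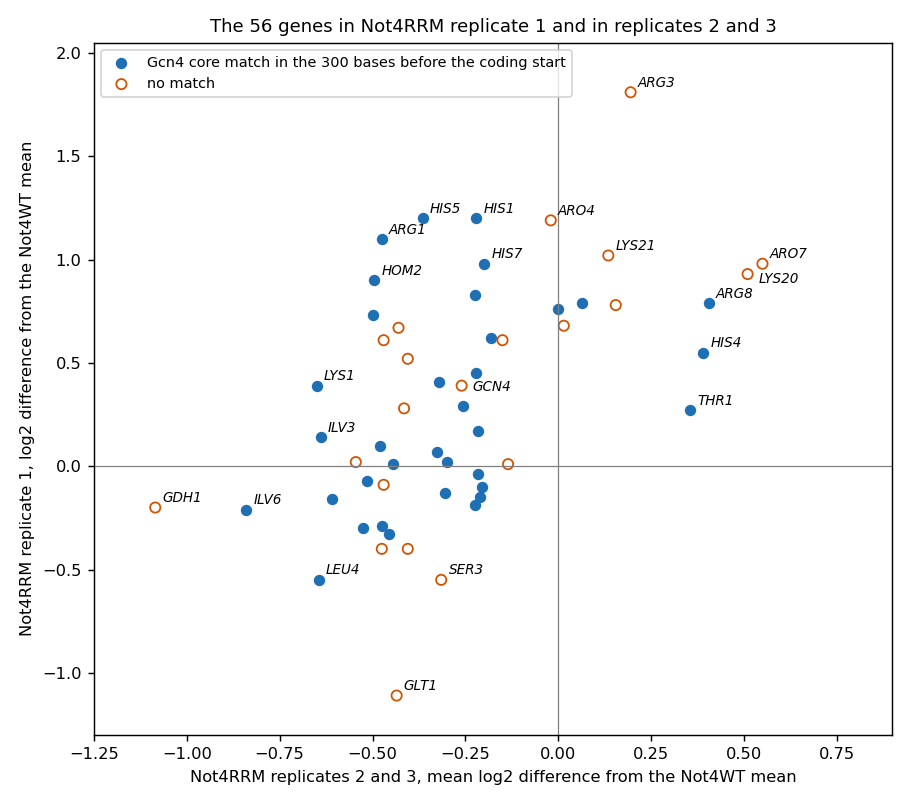
Log2 difference from the Not4WT mean in Not4RRM replicate 1 (vertical axis) against the mean of replicates 2 and 3 (horizontal axis), with 1 point for each of the 56 genes, marked by whether the 300 bases before the coding start hold a Gcn4 core match. For 26 genes replicate 1 lies above the Not4WT mean while replicates 2 and 3 both lie below it, and *LEU4*, *ILV6*, *GDH1* and *GLT1* are among the genes below 0 on both axes.

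Genes with and without a core match before the coding start had nearly the same medians in Not4RRM replicates 2 and 3, and in replicate 1 the median was higher over those without. In Not4RRM replicates 1 to 3 the median log2 differences from the Not4WT mean were 0.17, -0.31 and -0.32 over the 35 genes with a match and 0.52, -0.28 and -0.35 over the 21 without. Over the 415 other tested genes with a match they were 0.07, -0.04 and -0.09. The difference between genes with and without a match was not tested. No match was found in this window for *ARG3*, *LYS20*, *LYS21*, *ARO4*, *ARO7*, *GDH1*, *GLT1* and *GCN4*, among others, which says only that these letters are not within it.

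Where 2 genes encode isoenzymes, the members of a pair often had unlike values. *LEU4* and *LEU9* are 76.9% identical over their aligned coding sequences, and *LEU9*, the minor α-isopropylmalate synthase, was at 2396, 2152 and 1969 with Not4WT and 2064, 1534 and 1498 with Not4RRM (log2 fold change -0.37, against -0.61 for *LEU4*). *ARO3* and *ARO4* encode the DAHP synthases, the first step of the aromatic pathway, inhibited by phenylalanine and tyrosine respectively. *ARO3* was at 12048, 11206 and 10966 with Not4WT and 17351, 10332 and 10234 with Not4RRM. *ARO4* was at 8673, 9749 and 8141 with Not4WT and 20200, 9208 and 8236 with Not4RRM. Both were highest in replicate 1, by more for *ARO4*, and their log2 fold changes of 0.10 and 0.38 became -0.15 and -0.02 without that sample.

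The branched-chain aminotransferases differed in direction. *BAT1*, the mitochondrial enzyme, was at 4565, 4245 and 3198 with Not4WT and 6859, 3905 and 4402 with Not4RRM (log2 fold change 0.31, standard error 0.27). *BAT2*, the cytosolic one, was at 2115, 2775 and 1847 with Not4WT and 1675, 1750 and 1595 with Not4RRM (-0.40, standard error 0.20), so only *BAT2* had groups that did not overlap. Neither passed the test (limma adjusted p = 0.568 and 0.353), and the difference between them was not tested. Without replicate 1 the values were 0.07 for *BAT1* and -0.41 for *BAT2*. *ASN1* was at 8163, 6920 and 6390 with Not4WT and 7231, 5845 and 5687 with Not4RRM, and *ASN2* was at 6309, 4723 and 5543 and at 6695, 4759 and 4459. For both of these asparagine synthetases the groups overlapped. *SER3*, one of the phosphoglycerate dehydrogenases that start serine synthesis, was at 767, 984 and 677 with Not4WT and 547, 660 and 627 with Not4RRM, and *SER33*, the other, was at 3335, 3489 and 2627 and at 3350, 2219 and 2253. Of this pair only *SER3* had groups that did not overlap. Reads of such pairs can be hard to assign. The longest identical stretch was 278 bp in *LYS20* and *LYS21*, which are 88.2% identical, 83 bp in *ASN1* and *ASN2*, 56 bp in *SER3* and *SER33* and 41 bp in *LEU4* and *LEU9*, so their separate values are uncertain where reads were shorter than these, and 17 bp for the *ARO* and for the *BAT* pair.

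Chromosome VIII carried 3 of the 56 genes, *ARG4*, *BAT1* and *THR1*, and over its 275 tested genes the median log2 fold change was 0.65 (0.78 without replicate 1), against 0.05 over all tested genes. *ARG4*, argininosuccinate lyase, had normalised counts of 1518, 1201 and 1057 with Not4WT and 2112, 1253 and 1238 with Not4RRM. *THR1*, homoserine kinase, was at 6820, 7323 and 5606 with Not4WT and 7873, 8149 and 8545 with Not4RRM. The log2 fold changes of *ARG4*, *BAT1* and *THR1* were 0.26, 0.31 and 0.32, all positive and all below the median of their chromosome, and without replicate 1 they were 0.00, 0.07 and 0.35. The part of the chromosome in these 3 values was not tested. Over the other 53 genes the median was -0.11, and -0.32 without replicate 1.

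**Figure D4:**
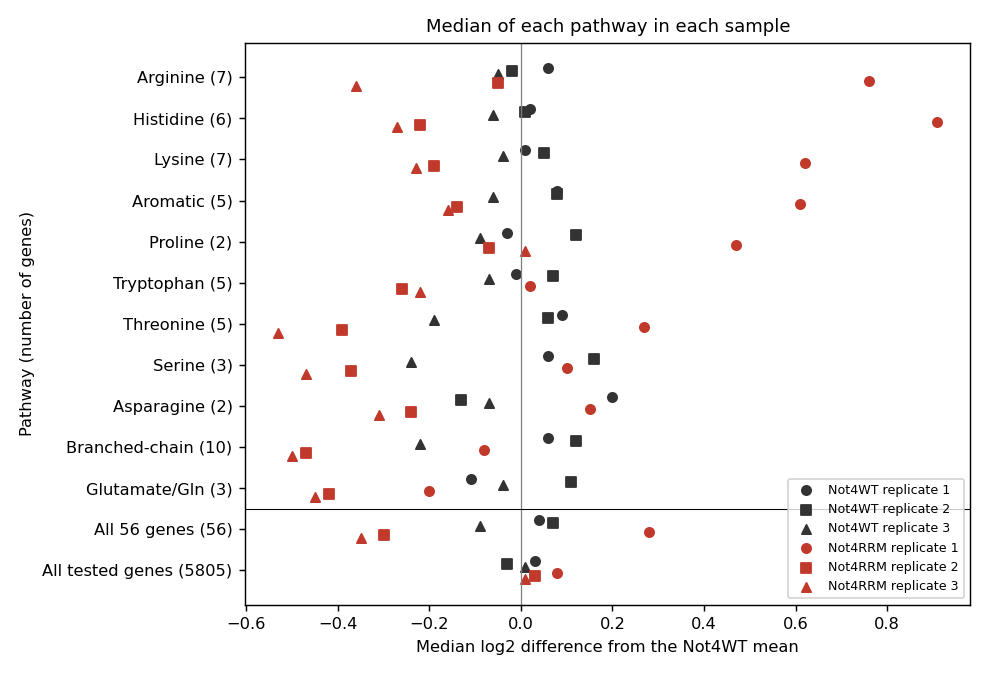
Median log2 difference from the Not4WT mean over the genes of each pathway, with 1 point for each of the 6 cultures. The Not4WT points lie between -0.24 and 0.20. Not4RRM replicate 1 lies above 0 for the arginine (0.76) and histidine (0.91) genes and below 0 for the branched-chain (-0.08) and glutamate (-0.20) genes. In the pathways, Not4RRM replicates 2 and 3 are below 0 apart from 0.01 for proline in replicate 3. Over all tested genes they are at 0.03 and 0.01.

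A further 28 genes of amino acid transport, regulation, breakdown and other steps of the same pathways gave 12 positive and 16 negative log2 fold changes, with a median of -0.18. Limma called 0 of them, with 3 at an unadjusted p under 0.05 (*ARO9* and *SER2* higher, *AGX1* lower), against 16.0% of all genes. The study's steps called *AGX1*, as lower, on the deposited values (3.81% of all genes) and on the TMM-scaled values (2.13%). *ARO9*, the aromatic aminotransferase of amino acid breakdown, stood out, with normalised counts of 603, 854 and 673 with Not4WT and 1714, 3850 and 4266 with Not4RRM. Every Not4RRM sample was above the Not4WT range, and the log2 fold change was 2.11 (standard error 0.35, limma adjusted p = 0.1). It lies on chromosome VIII, where the median log2 fold change was 0.65, and the part of the chromosome in its value was not tested. Without replicate 1, limma called 5 of the 28, against 6.18% of all genes. Of these, *ARO9* rose by 2.53 (adjusted p = 0.0109) and *LYS14*, the activator of lysine genes, by 0.69 (adjusted p = 0.0468). In the same fit *ARG80*, a regulator of arginine genes, fell by 0.83 (adjusted p = 0.0257), *SHM1*, the mitochondrial serine hydroxymethyltransferase, fell by 1.03 (adjusted p = 0.0214), and *AGX1*, alanine-glyoxylate aminotransferase, fell by 0.73 (adjusted p = 0.0359). *LEU3*, the activator of leucine genes, had a log2 fold change of -0.28 (standard error 0.16).

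Among 15 genes that control Gcn4 the median log2 fold change was -0.07. Limma called 0 of them, with 3 at an unadjusted p under 0.05, against 16.0% of all genes. The study's steps called the same 3, *PCL5* as higher (2.20% of all genes) and *GCN1* and *GCN2* as lower (3.81%). On TMM-scaled values they called *PCL5* (3.48% of all genes higher) and *GCN1* (2.13% lower). *PCL5* encodes the cyclin that directs the kinase Pho85 to phosphorylate Gcn4, which marks Gcn4 for degradation, and *PCL5* is itself a target of Gcn4. *PCL5* (YHR071W, chromosome VIII, 237004 to 237693, plus strand) had normalised counts of 1113, 828 and 1011 with Not4WT and 2059, 2136 and 2363 with Not4RRM. The groups were well apart, and replicate 1 was with the other Not4RRM samples. The log2 fold change was 1.16 (standard error 0.18, limma adjusted p = 0.0916), and *PCL5* rose by 1.20 without replicate 1 (adjusted p = 0.0214). In that fit 1 of the 15 was called, against 6.18% of all genes. The 275 tested genes of chromosome VIII had a median log2 fold change of 0.65, and 268 were positive. The part of the chromosome in the value of *PCL5* was not tested. *PHO85* itself had a log2 fold change of -0.03. *GCN2*, the kinase of eIF2, was at 1587, 1357 and 1342 with Not4WT and 910, 1065 and 1021 with Not4RRM, and *GCN1*, which Gcn2 needs to be activated, was at 4497, 4855 and 4278 and at 2050, 3186 and 3215. Both were lower in every Not4RRM sample, with log2 fold changes of -0.52 and -0.72 (limma adjusted p = 0.22 and 0.217). They were -0.45 and -0.50 without replicate 1, and -0.28 and -0.42 after removal of the trend with coding length. Both genes are long, and the part of length in these values was not tested further. *GCN20*, the partner of *GCN1*, had a log2 fold change of 0.00 (standard error 0.15).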

How the data were processed

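The authors aligned quality-trimmed Ion Torrent reads to the S288C transcriptome with STAR (labels name R64, the version is not given in the sources used here), counted reads per transcript, scaled each sample to the lowest coverage and deposited the rounded values. These deposited values were treated as a score, not as raw counts, since totals differ by at most 66. The paper and the labels describe different library kits. Cultures were grown in triplicate, and whether they came from separate transformants is not stated, so p-values measure the spread between these samples only. The row without a gene name was left out.

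Testing was limited to the 5805 genes that reached 10 in 3 or more samples and summed to 15 or more. Values were divided by TMM factors (0.9288 to 1.0831, with trims of 30% and 5%), and log2(value + 1) was fitted with limma 3.58.1 in R 4.3.3, with group as the single term, a prior that follows the level, two-sided tests and Benjamini-Hochberg adjustment over all tested genes. Fold changes on this scale understate those of genes with low values. In data simulated for this comparison, 200 of 200 changed genes were recovered among 5803, with 6 false calls. With all 6 measured samples, limma did not call *NOT4*, which was 3.63-fold higher in Not4RRM (limma adjusted p = 0.072). Nor did it call *ARO9*, which was 4.62-fold higher (limma adjusted p = 0.1). How often the fit would call a changed gene in the measured samples was not tested. Coordinates, coding sequences and promoters are from RefSeq R64 (5907 genes matched), and pairs were aligned with Biopython 1.88.

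The members and lists were chosen with earlier results of these data known. All 56 genes could be named, but the result of 1 is not reported here by itself, though it is counted in the totals. *GCN4*, genes with groups that do not overlap and a 1.5-fold difference, chromosome VIII genes and isoenzyme pairs were given sample by sample, and other genes so given were chosen after their values were seen. Alternatives were other scalings, filters, pseudocounts and priors, the study's steps, a length correction, a replicate block and each sample left out.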

Additional observations from a re-analysis of the deposited data

How the results depend on the processing

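With all 6 samples, limma called 0 of 5805 genes and 0 of the 56. The study's steps called 355 genes, with 3 of the 56, and the same steps on TMM-scaled values, an alternative chosen after seeing the data, called 332, with 2 of the 56 (*LEU4* and *GLT1*). Leaving out 1 sample gave 0 to 358 genes and 0 to 3 of the 56, with the highest counts without Not4RRM replicate 1. On the deposited scale, which moved the median of all genes by -0.12, 3 log2 fold changes turned, *ARG1* to -0.07, *LYS12* to -0.04 and *ARO3* to -0.02. Removal of the length trend turned *ARG56* to 0.07, *HIS6* to -0.06, *ILV2* to 0.02 and *LYS2* to 0.02, and so did the replicate block with that removal (0.07, -0.06, 0.02 and 0.02). With 1 sample left out the log2 fold change ranged from -0.47 to 0.33 for *ARG1*, -0.32 to 0.08 for *ARG56*, -0.22 to 0.50 for *HIS1*, -0.36 to 0.42 for *HIS5*, -0.22 to 0.31 for *HIS6*, -0.20 to 0.44 for *HIS7*, -0.19 to 0.01 for *ILV2*, -0.43 to 0.16 for *LYS9*, -0.18 to 0.24 for *LYS12*, -0.41 to 0.08 for *ARO2*, -0.15 to 0.23 for *ARO3*, -0.02 to 0.63 for *ARO4*, -0.50 to 0.23 for *HOM2*, -0.47 to 0.10 for *HOM6*, -0.26 to 0.12 for *GCN4*, -0.25 to 0.04 for *ASN2*, -0.50 to 0.18 for *SER1* and -0.22 to 0.08 for *PRO2*. Omitting the filter, other pseudocounts, a constant prior and the median of ratios turned 0 of the 56 and called 0, with signs read at 2 decimals and *TRP4*, at 0.00 with all 6 samples and -0.03 under the median of ratios, not counted as turned. Deviations of same-numbered samples correlated at r = 0.0695, -0.1488 and 0.379 for numbers 1 to 3, over 0.1 for number 3 only, so the numbers were not taken to pair the samples, and the replicate block called 0 genes and turned 0 of the 56. The cause of these changes was not tested. Since the unscaled depth is not known, the error of counting could not be modelled apart from the spread between samples.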
